A study of Mus musculus with 6 samples.

Results

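The genes examined here carry the symbols of mitochondrial ribosomal proteins, taken as every protein-coding mouse gene in RefSeq whose symbol is *Mrpl* or *Mrps* followed by a number. This rule gave 78 genes, 49 *Mrpl* genes named for the large subunit and 29 *Mrps* genes named for the small subunit. All but *Mrps36* encode subunits of the mitochondrial ribosome, and *Mrps36* is counted here by its symbol. All 78 had at least 1 probe on the array, and 53 of them were among the 14711 genes that could be tested under the settings used. Levels were measured in brown adipose tissue (BAT) of 3 wild-type (WT) and 3 miR-22 knockout (KO) male mice, which the study's methods give as 8 weeks old, with 1 mouse per array. The KO line lacks miR-22 in every tissue, not in adipocytes alone, and each array held RNA of whole tissue. For these genes, fewer cells of a type and less RNA per cell therefore cannot be told apart. The series' design text also mentions a flow separation of the samples, without saying what was separated.

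Mitochondria carry their own ribosome, which translates the few messages of mitochondrial DNA into core subunits of the respiratory chain and the ATP synthase. Its ribosomal RNAs are encoded in mitochondrial DNA, while all of its proteins are encoded in the nucleus, made in the cytosol and imported. Some of these proteins have counterparts in the bacterial ribosome, and others are found only in mitochondria. BAT is rich in mitochondria, whose respiration, uncoupled by *Ucp1*, produces heat.

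The microRNA missing from the KO mice is encoded on chromosome 11, and both of its mature arms are shown because they define the contrast. The sequences are those of RefSeq on GRCm38.p6, and capitals mark the seed, bases 2 to 8. The 5p arm lies at chr11:75463734-75463755 and the 3p arm at chr11:75463772-75463793, both on the plus strand.
mmu-miR-22-5p: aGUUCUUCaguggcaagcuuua
mmu-miR-22-3p: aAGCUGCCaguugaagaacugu
The arrays measure longer transcripts and not the mature microRNA. The host transcript *Mir22hg* had log2 signals, scaled to the 75th percentile of each array, of 1.20, 1.69 and 1.22 in WT mice and 2.02, 2.11 and 2.23 in KO mice. All KO values of *Mir22hg* thus lay above the WT values, by 0.75 ± 0.18 (SE), with a limma adjusted p of 0.108. The position of that probe relative to the deleted part was not given in the sources used here, so it is no check of the labels.

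The tissue label was checked with 10 brown adipocyte markers, all of which had a probe above background. *Ucp1*, the uncoupling protein of brown fat, had log2 signals of 5.51, 5.85 and 5.53 in WT mice and 5.10, 5.0 and 5.65 in KO mice, with spots marked by the scanner software kept. These values overlapped between the groups. In these values, 8 of the 10 brown adipocyte markers had a lower KO mean, against 55.9% of all genes, with a median difference of -0.35. Of the 10, 1 was called lower (10%, against 11.1% of all genes), *Ppargc1a*, a coactivator of mitochondrial genes, at -0.59. The median signal of these markers was 3.13. Of 939 other genes in the middle range of signal of the *Mrpl* and *Mrps* genes, 89.4% had a lower KO mean, with a median difference of -0.25. Under quantile normalization the median difference of the 10 markers was -0.08. The mean level of the 10 markers was 2.73, 3.03 and 2.87 in WT mice and 2.74, 2.32 and 2.88 in KO mice. The 8 general adipocyte markers had a median of -0.28, or 0.002 under quantile normalization, and none was called. Of 8 nerve and Schwann cell markers, 6 had a lower KO mean, with a median of -0.26. Among these 8, 2 were called lower (25%, against 11.1% of all genes), *Mbp* at -0.66 and *S100b* at -0.50. The mean level of the list was 0.33, 0.29 and -0.27 in WT mice and -0.38, 0.03 and -0.16 in KO mice. Of 10 macrophage markers, 2 had a lower KO mean, the median was 0.22 and 1 was called higher. Of 5 tested lymphocyte markers, dim at a median signal of -3.18, none had a lower KO mean. Their median was 0.45, and 1 was called higher. Over all 16110 genes, 1526 were called higher. The part of these markers in the results on the members was not tested. Between 55.8% and 66.5% of the spots of an array were well above background. The arrays differed in the share of spots that the scanner software marked as uneven or as outliers, which ran from 4.87% to 17.1% and was highest in WT 3 (17.1%) and KO 1 (15.1%). Skeletal muscle markers, the mean of 20 genes, also differed widely between mice, at 2.26, 1.43 and -4.79 in WT mice and -0.08, 3.34 and 1.38 in KO mice. All arrays lay on 1 slide, with WT 1 and WT 2 in its first row and the other 4 arrays in the second.

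Nearly all mitochondrial ribosomal protein genes had a lower mean in the KO mice. Of the 53 tested genes, 52 had a lower KO mean, against 52.9% of all tested genes. The median difference was -0.36 on the log2 scale, a signal 22.3% lower in KO, with quartiles of -0.47 and -0.30 and a range from -0.65 (*Mrps17*) to 0.08 (*Mrpl9*). The median over all tested genes was -0.03. At an unadjusted p under 0.05, 15 of the 53 fell (28.3%), against 8.82% of all tested genes called lower. No member rose, where 10.0% of all tested genes were called higher. No member passed after Benjamini-Hochberg adjustment over all genes, where 0.0408% of all tested genes were lower, and the smallest adjusted p of a member was 0.132 in limma (*Mrpl54*). Of the 32 members with an unmarked value in every mouse, 12 had all KO values below all WT values (37.5%), against 14.7% of all such genes.

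Bright genes in general were lower in the KO mice under this scaling. With the level of a gene taken as its mean log2 signal over the arrays, the median difference over all genes ran from 0.17 among the dimmest, at levels below -4, to -0.37 among the brightest, at levels of 5 and above. The members are bright, with the middle of their range between levels of 2.65 and 3.56. The 816 other genes in that range had a median difference of -0.24, 15.6% lower in KO, and 88.8% of them had a lower KO mean. Of these, 15.7% were called lower, and 32.6% of those with all values had no overlap in that direction. Of the 53 members, 27 lay inside that range by the same measure. These had a median of -0.34, which is 0.10 below that of the other genes, and 24 of the 27 lay below the median of the other genes. Of the 27, 7 were called lower (25.9%). At levels of 2 to 3, the median was -0.36 for 13 members and -0.21 for 1238 other genes. At levels of 3 to 4, it was -0.36 for 29 members and -0.27 for 647 other genes. In that bin, which holds most members, 17.2% of members and 13.8% of other genes were called lower. At levels of 2 to 3 these shares were 38.5% and 14.1%.

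**Figure D1:**
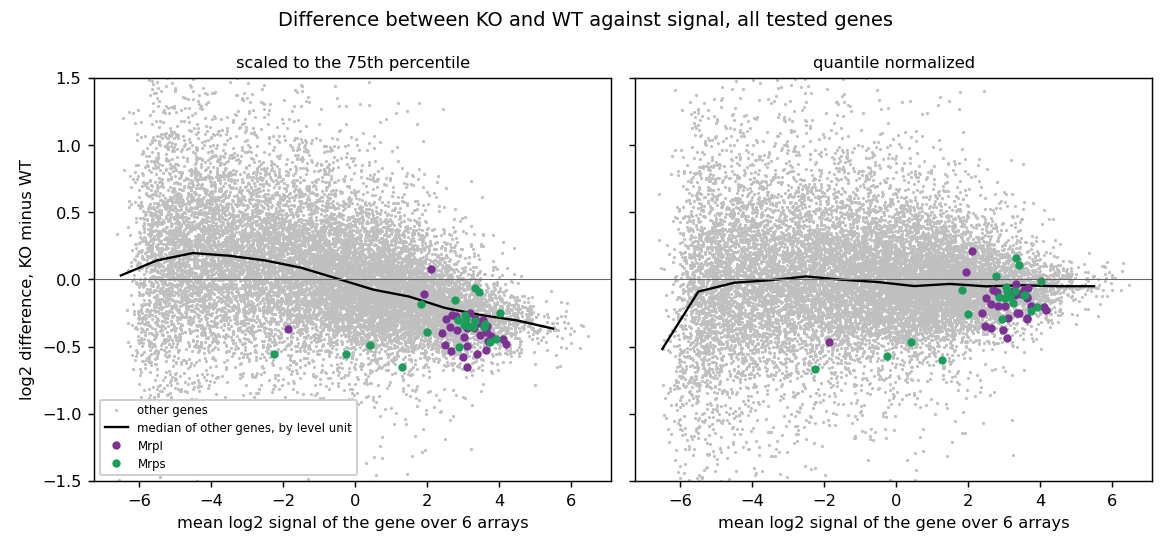
Difference between KO and WT (log2, vertical axis) against the mean log2 signal over 6 arrays (horizontal axis) for each tested gene, with values scaled to the 75th percentile at left and quantile normalized at right. Coloured points are members, the black line is the median of the other genes in each unit of signal, and points beyond 1.5 in either direction are not drawn. At left the black line falls with signal, to -0.27 for all genes between levels 3 and 4, and most members lie below it.

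The most significant member was *Mrpl54*, a large subunit protein found in mitochondria and not in bacteria. Its log2 signal was 3.09, 3.51 and 3.23 in WT mice and 2.69, 2.66 and 2.74 in KO mice. All KO values lay below all WT values, and the KO values lay close together. *Mrpl54* fell by 0.58 ± 0.15 (SE) on the log2 scale, or 33.1%, with an unadjusted p of 0.00693 and a limma adjusted p of 0.132. *Mrpl58*, a large subunit protein that can release stalled peptides from the ribosome, had the largest difference among the called genes. Its signal was 3.13, 3.92 and 3.24 in WT mice and 2.70, 2.60 and 3.05 in KO mice. The groups did not overlap, although WT 2 stood above the other WT mice. The difference of *Mrpl58* was -0.65 ± 0.24 (SE), or 36.2% lower, with an unadjusted p of 0.0327 in limma.

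Large subunit genes with bacterial counterparts fell as well. *Mrpl27*, which in bacteria lies near the site of peptide bond formation, had 3.50, 3.89 and 3.55 in WT mice and 2.98, 3.01 and 3.29 in KO mice (difference -0.55 ± 0.17). *Mrpl55* had 3.67, 4.15 and 3.87 in WT mice and 3.23, 3.31 and 3.58 in KO mice (-0.52 ± 0.18). In both genes KO 3 was the highest KO mouse and still lay below every WT mouse. With marked spots kept, the other testable probes of *Mrpl27* differed by -0.51 and -0.29, and at the latter, the dimmest, the groups overlapped. Under quantile normalization *Mrpl27* was read from another probe, at -0.25, and was not called. *Mrpl2*, a core protein that binds the large ribosomal RNA, had 4.26, 4.68 and 4.32 in WT mice and 3.80, 3.81 and 4.20 in KO mice (-0.48 ± 0.18). *Mrpl35*, read from a dim probe, had -1.80, -1.73 and -1.5 in WT mice and -2.06, -2.15 and -1.92 in KO mice (-0.37 ± 0.15). Neither gene showed overlap. *Mrpl3*, another core large subunit protein, had 2.72, 3.20 and 2.84 in WT mice and 2.35, 2.08 and 2.72 in KO mice (-0.53 ± 0.21). There KO 3 reached just above the lowest WT mouse. Among proteins particular to mitochondria, *Mrpl57* had 3.19, 3.67 and 3.21 in WT mice and 2.82, 2.76 and 3.01 in KO mice (-0.50 ± 0.18). *Mrpl37* had 2.72, 2.89 and 2.81 in WT mice and 2.51, 2.30 and 2.54 in KO mice (-0.36 ± 0.14). These groups did not overlap either.

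Of the called members, 5 are named for the small subunit. *Mrps27*, which carries RNA-binding helical repeats, had 0.03, 0.06 and -0.03 in WT mice and -0.56, -0.74 and -0.31 in KO mice. The WT mice lay close together, and all KO mice lay below them. The difference was -0.56 ± 0.15 (SE), with an unadjusted p of 0.00831 in limma. *Mrps14*, a protein shared with bacteria, had -2.10, -1.89 and -1.90 in WT mice and -2.38, -2.41 and -2.76 in KO mice (-0.56 ± 0.16). That value comes from a dim probe, because the brighter probe of *Mrps14* had too few unmarked spots. With marked spots kept, the brighter probe had 3.01, 3.32 and 2.97 in WT mice and 2.50, 2.53 and 2.76 in KO mice (-0.50 ± 0.15). Under quantile normalization, the difference was -0.67 at the dim probe and -0.31 at the brighter one. *Mrps33* had 0.53 and 0.89 in the WT mice with a value and 0.15, 0.13 and 0.39 in KO mice (-0.49 ± 0.19). The remaining called members, *Mrps16*, *Mrpl45* and *Mrps22*, had differences of -0.47, -0.38 and -0.50. *Mrps16* overlapped between the groups, and *Mrps22* had 2 values in each group.

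**Figure D2:**
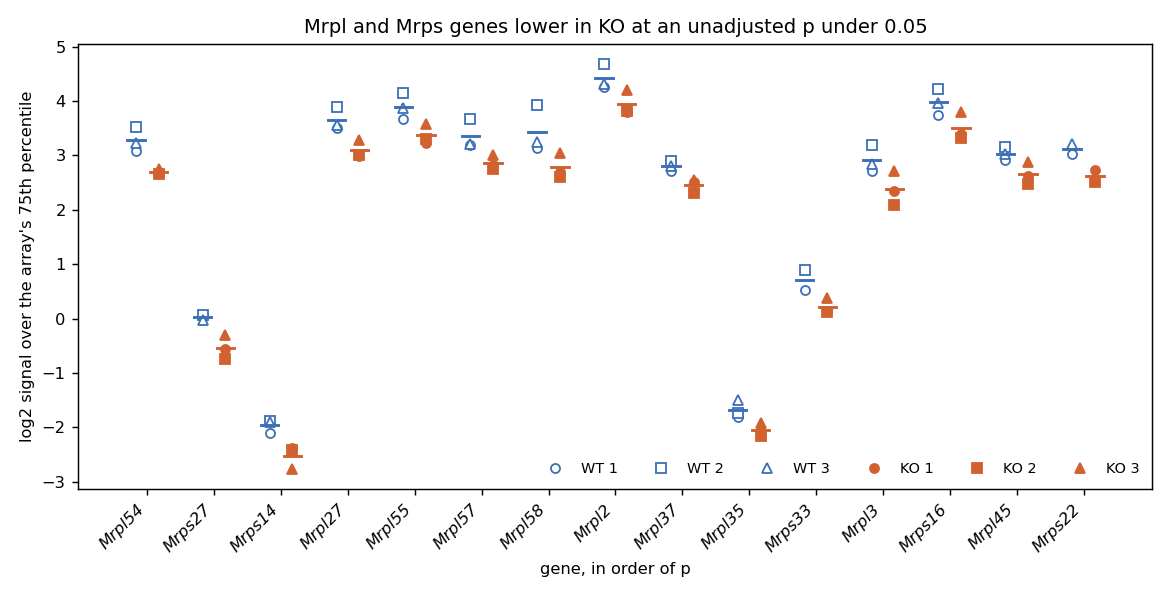
Log2 signal over the 75th percentile of the array (vertical axis) for each of the 15 members with an unadjusted p under 0.05, in order of p along the horizontal axis. Open blue symbols are WT mice, filled orange symbols KO mice, symbol shapes name the mouse and bars are group means. KO 3 is the highest KO value in most of them, and WT 2 the highest WT value in most.

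The members with the smallest differences were *Mrps23*, *Mrpl9* and *Mrps31*. *Mrps23* had 3.27, 3.41 and 3.42 in WT mice and 3.33, 3.10 and 3.47 in KO mice (-0.07 ± 0.15). *Mrpl9* had 2.19, 1.70 and 2.29 in WT mice and 2.10, 1.99 and 2.32 in KO mice (0.08 ± 0.20). In both, KO and WT values were interleaved. *Mrps31* had 3.50 and 3.49 in the WT mice with a value and 3.35 and 3.45 in the KO mice with one (-0.09 ± 0.17). For 20 of the 23 members with 2 or 3 probes, every probe had a lower KO mean with marked spots kept, as had 99 of all 104 member probes. In 2 members, testable probes had opposite signs. For *Mrpl44*, a large subunit protein related to ribonuclease III, the brighter probe differed by -0.27 and the dimmer by 0.63. For *Mrps9*, the brighter probe differed by -0.15 and the dimmer by 0.01.

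The other 25 members were not tested because the software had marked too many of their spots, although all 104 member probes were well above background on every array and none was saturated. Of the member probe values, 58 were marked in WT 3 and 42 in KO 1, against 15 to 28 in the other mice. When marked spots were kept, all 78 members could be tested, among 16110 genes. Of the 78, 76 had a lower KO mean, against 55.9% of all genes, and the median difference was -0.37. At an unadjusted p under 0.05, 35 fell (44.9%), against 11.1% of all genes, and 14 of the 15 genes named above were among them, *Mrps33*, then read from a brighter probe, being the exception. Of the 939 other genes of the same brightness, 20% were called lower, with a median of -0.25. All KO values lay below all WT values in 38 of the 78 (48.7%), against 17.1% of all genes and 31.4% of genes of the same brightness. No member passed adjustment (smallest limma adjusted p 0.117).

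Among the 25 members that only this setting could test, 24 had a lower KO mean, against 55.9% of all genes, and the median difference was -0.36. Of the 25, 11 fell (44%), against 11.1% of all genes and 20% of genes of the same brightness. Under quantile normalization with marked spots kept, 2 of the 25 fell (8%, against 10.6% of all genes). In that setting 4 had no overlap (16%, against 15.9% of all genes), and the median was -0.13. *Mrpl53* had 4.14, 4.34 and 4.29 in WT mice and 3.83, 3.61 and 3.85 in KO mice (-0.49 ± 0.14). *Mrpl34*, a small protein shared with bacteria, had 4.28, 4.69 and 4.31 in WT mice and 3.91, 3.78 and 3.95 in KO mice (-0.55 ± 0.16). *Mrps28* had 3.73, 4.16 and 3.95 in WT mice and 3.36, 3.30 and 3.67 in KO mice (-0.50 ± 0.17). In these 3 genes the groups did not overlap. *Mrpl12*, the stalk protein that also binds the mitochondrial RNA polymerase, had 4.58, 4.75 and 4.77 in WT mice and 4.26, 4.19 and 4.47 in KO mice (-0.39 ± 0.14). The others that fell were *Mrpl42*, *Mrpl13*, *Mrpl47*, *Mrpl39*, *Mrpl15*, *Mrps24* and *Mrpl30*, with differences from -0.47 (*Mrpl39*) to -0.32 (*Mrps24*). Not past the threshold were *Mrps36*, *Mrpl40*, *Mrpl24*, *Mrps18a*, *Mrpl22*, *Mrpl28*, *Mrpl51*, *Mrpl21*, *Mrpl32*, *Mrps6*, *Mrpl49*, *Mrpl19*, *Mrps35* and *Mrps30*. *Mrps18a* had the largest difference of all, -0.90 ± 0.42, with 4.10, 3.65 and 4.41 in WT mice and 3.81, 3.46 and 2.20 in KO mice, so that KO 3 alone stood far below the rest. *Mrps35* was the exception in direction, at 0.08.

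**Figure D3:**
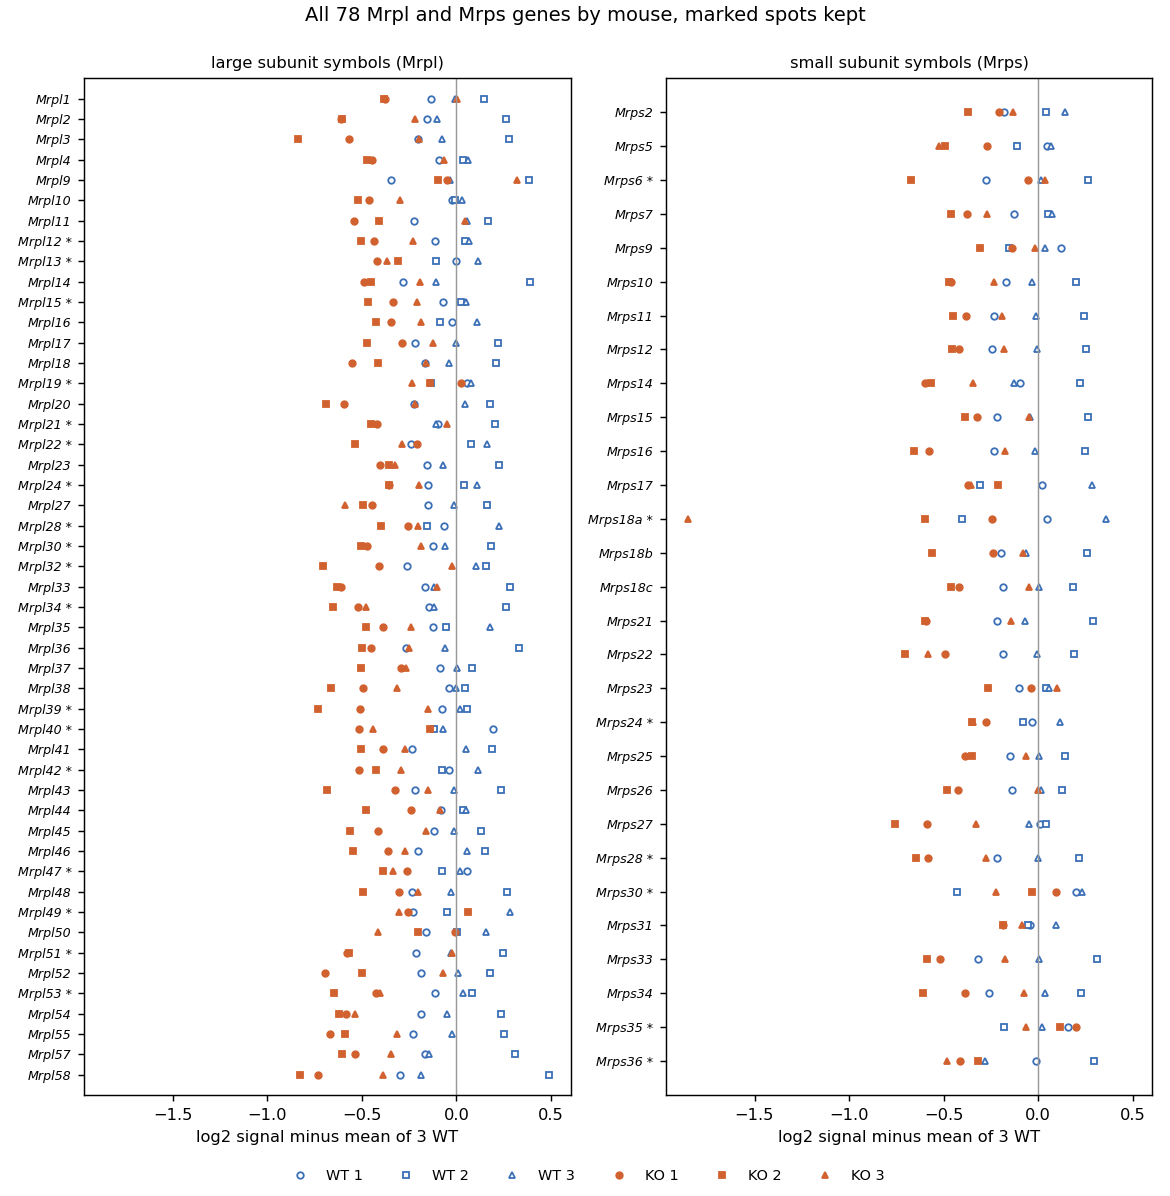
Log2 signal of each mouse minus the mean of the 3 WT mice (horizontal axis) for all 78 members, large subunit symbols at left and small subunit symbols at right, with marked spots kept. Asterisks mark the 25 genes tested only in this setting. Filled orange KO symbols lie mostly left of the open blue WT symbols, with KO 3 nearest to them.

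The mice did not contribute equally. The median over the 78 members, as the deviation from the WT mean with marked spots kept, was -0.15, 0.16 and 0.01 in WT mice and -0.41, -0.49 and -0.21 in KO mice. For other genes of the same brightness, the medians were -0.11, 0.14 and -0.02 in WT mice and -0.32, -0.37 and -0.07 in KO mice. Under this scaling both sets placed WT 2 highest and KO 2 lowest, with KO 3 the highest KO mouse. In every KO mouse the members lay below the other genes. The 75th percentile that scaled each array was 1984, 1435 and 1602 in WT mice and 2538, 2633 and 1599 in KO mice. It was thus highest in KO 2 and KO 1, where the members were lowest, and lowest in WT 2. Its part in the order of the mice was not tested. The order turned under quantile normalization, where the members were highest in WT 3 (0.06) and lowest in KO 3 (-0.18), close to KO 2 (-0.18). Scaled to the 75th percentile, WT 2 was the highest of the 6 mice in 50 of the 78 members, KO 2 the lowest in 53, and KO 3 the highest KO mouse in 62.

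Under quantile normalization, which gives all arrays the same distribution of signal, the differences were smaller. The median over the 53 members was -0.14, or 9.30% lower in KO, against -0.05, or 3.35% lower, for 822 other genes of the same brightness. The 27 members inside the range of brightness had a median of -0.12, and 23 of them lay below the median of those genes. Of the 53, 48 had a lower KO mean, against 54.9% of all genes, and 8 fell (15.1%), against 10.2% of all genes. Of the 27 inside the range, 3 fell (11.1%), against 6.2% of genes of the same brightness. *Mrps14*, *Mrpl35*, *Mrps27* and *Mrps33*, which also fell, were dimmer than that range, at levels from -2.25 to 0.41. All KO values lay below all WT values in 14 of 31 members, against 16.6% of all such genes. All 8 were among the 15 named above. They were *Mrps14*, *Mrps27*, *Mrpl35*, *Mrpl54*, *Mrpl55*, *Mrps33*, *Mrpl58* and *Mrpl57*, with differences from -0.67 (*Mrps14*) to -0.29 (*Mrpl57*). With marked spots kept as well, a setting chosen after seeing the data, 13 of 78 fell (16.7%), against 10.6% of all genes, and the median was -0.15, against -0.04 for 932 genes of the same brightness. *Mrpl35*, *Mrpl54*, *Mrpl55*, *Mrpl57*, *Mrpl58*, *Mrps14* and *Mrps27* fell under both scalings, with marked spots left out and with marked spots kept.

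**Figure D4:**
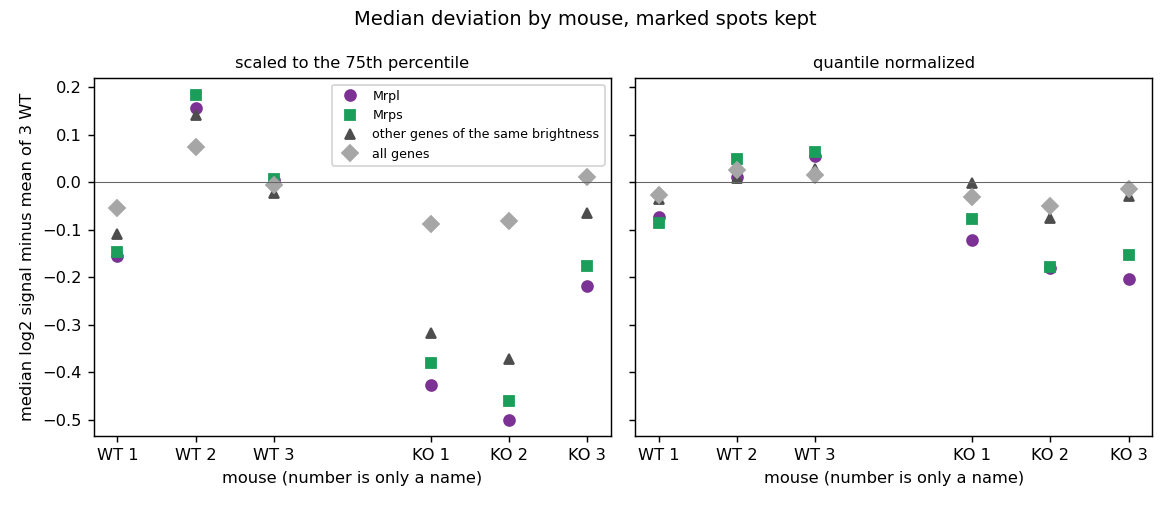
Median over genes of the log2 signal minus the mean of the 3 WT mice (vertical axis) for each mouse (horizontal axis), with marked spots kept, scaled to the 75th percentile at left and quantile normalized at right. *Mrpl* and *Mrps* genes lie below genes of the same brightness in every KO mouse, and also in WT 1, in both panels. Under quantile normalization the *Mrps* median was -0.078 in KO 1 and -0.085 in WT 1, so the groups overlapped for *Mrps* genes. Under quantile normalization the KO medians of all 78 members were -0.10, -0.18 and -0.18 and the WT medians -0.08, 0.02 and 0.06.

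Genes named for both subunits had lower medians in KO. The median difference was -0.38 for the 31 tested *Mrpl* genes and -0.35 for the 22 tested *Mrps* genes. The subunits were also compared by mouse, with each gene's signal taken as its deviation from its own WT mean. Members with a value in every mouse were 18 *Mrpl* and 14 *Mrps* genes. The *Mrpl* median deviation minus that of *Mrps* was 0.03, 0.02 and -0.04 in WT mice and -0.14, -0.08 and -0.12 in KO mice. Because each gene is centred on the WT mice, the WT gaps lie close together by construction and the KO gaps need not. Every KO mouse lay below every WT mouse in these genes, and the group means differed by -0.12. With marked spots kept and all 78 members, that gap was -0.01, -0.03 and -0.003 in WT mice and -0.05, -0.04 and -0.04 in KO mice, a difference of -0.03, again without overlap. Under quantile normalization with marked spots kept it was 0.01, -0.04 and -0.01 in WT mice and -0.04, -0.003 and -0.05 in KO mice, and the groups overlapped. Of the *Mrpl* genes, 10 fell (32.3%), and of the *Mrps* genes 5 (22.7%), against the 8.82% of all genes given above. The groups did not overlap in 10 of 18 *Mrpl* genes (55.6%) and in 2 of 14 *Mrps* genes (14.3%) with all values. This compares with 14.7% of all such genes and 32.6% of those of the same brightness, so the *Mrps* share was no higher than either. With marked spots kept, 26 of 49 *Mrpl* genes fell (53.1%) and 9 of 29 *Mrps* genes (31%), with medians of -0.38 and -0.34. In that setting 11.1% of all genes and 20% of genes of the same brightness were called lower. Under quantile normalization the medians were -0.19 and -0.13. The higher share of *Mrpl* genes was not tested, since the genes of a subunit share the same 6 mice. By structure *Mrps30* and *Mrps18a* belong to the large subunit and *Mrps36* to neither, and none of them could be tested without marked spots, so that the tested genes are the same under either assignment. Members with a bacterial counterpart and members particular to mitochondria had medians of -0.37 and -0.36, with 7 of 31 and 8 of 22 called. The 8 tested members on chromosome 11, which also carries miR-22, had a median of -0.44, and 4 of them fell (*Mrpl27*, *Mrpl55*, *Mrpl58* and *Mrpl45*). The 45 tested members elsewhere had a median of -0.36, and 11 fell.

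Sequences near the start sites of the members were compared because their levels were lower together. RefSeq on GRCm38.p6 gave windows of 300 bases around the start, most of it upstream, for 69 of the 78 members and for 17492 protein-coding genes. The letters CCGGAAG, recognised by ETS factors such as GABPA, a regulator of mitochondrial genes, occurred on either strand in 26 of the 69 members (37.7%) and in 12.9% of all genes. The letters AANATGGC of the factor YY1 occurred in 21 members (30.4%) and in 7.46% of all genes. The letters GCATGCGC of NRF1, a factor known to bind genes of respiration, occurred in 8 members (11.6%) and in 3.94% of all genes. At least 1 of these motifs was present in 42 members (60.9%) and in 21.7% of all genes. The Sp1 letters GGGCGG, in contrast, occurred in 49.3% of members and 49.2% of all genes, and the TATA box letters TATAAA in 7.25% and 14.8%. TGACGTCA of the CRE occurred in 2.90% and 2.54%, and CACGTG of the E-box in 7.25% and 8.91%. A match describes the letters only and does not show that a factor binds. All genes here are protein-coding genes with a window, whether or not the arrays detected them. Genes of the same brightness were not compared, so these shares do not show an excess particular to the members.

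Among the members, the median differences with and without the YY1 or NRF1 letters lay close together, and those for the ETS letters lay further apart. These gaps were not tested. With marked spots kept, the median difference was -0.43 in the 26 members with the ETS letters and -0.36 in the other members with a window. It was -0.37 and -0.38 with and without the YY1 letters, and -0.36 and -0.37 with and without the NRF1 letters. Of the 15 called members, 14 had a window, and 8 of these held the ETS letters, 5 the YY1 letters and none the NRF1 letters. Over all members with a window the shares were 37.7%, 30.4% and 11.6%. The windows of the 3 called members that held both the ETS and the YY1 letters are shown, 5′ to 3′ on the strand of the gene, with ETS and YY1 letters of either strand in capitals. They lie at chr11:94653541-94653840 (plus strand) for *Mrpl27*, chr11:115403502-115403801 (plus) for *Mrpl58* and chr13:99344536-99344835 (plus) for *Mrps27*.
Mrpl27: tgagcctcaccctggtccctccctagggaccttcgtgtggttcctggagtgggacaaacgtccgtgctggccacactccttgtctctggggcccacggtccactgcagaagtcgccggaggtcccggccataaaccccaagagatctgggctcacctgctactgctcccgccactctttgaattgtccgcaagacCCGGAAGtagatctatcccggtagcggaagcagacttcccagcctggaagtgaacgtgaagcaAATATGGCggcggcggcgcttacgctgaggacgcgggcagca
Mrpl58: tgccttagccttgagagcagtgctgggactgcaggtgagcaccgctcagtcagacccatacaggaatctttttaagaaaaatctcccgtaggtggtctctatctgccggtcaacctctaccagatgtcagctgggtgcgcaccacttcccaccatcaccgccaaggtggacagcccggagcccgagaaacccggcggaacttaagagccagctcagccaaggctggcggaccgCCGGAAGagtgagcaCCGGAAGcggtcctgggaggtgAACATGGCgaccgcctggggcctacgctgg
Mrps27: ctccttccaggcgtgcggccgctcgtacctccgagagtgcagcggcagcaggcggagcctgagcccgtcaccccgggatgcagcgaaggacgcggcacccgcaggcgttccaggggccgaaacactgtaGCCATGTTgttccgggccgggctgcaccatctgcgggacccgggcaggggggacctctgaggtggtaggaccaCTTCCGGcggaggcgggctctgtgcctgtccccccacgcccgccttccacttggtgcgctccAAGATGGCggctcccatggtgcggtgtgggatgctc
The *Mrpl58* window holds the ETS letters at 2 places and the *Mrps27* window the YY1 letters at 2 places.

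Other genes of mitochondrial translation were examined by lists, each given beside the 8.82% of all genes called lower. The 5 mitochondrial ribosomal proteins with other symbols all had a lower KO mean, with a median of -0.34 (-0.20 under quantile normalization). Among them *Ptcd3*, a small subunit protein, fell by 0.41, from 2.88, 3.11 and 2.74 in WT mice to 2.47, 2.33 and 2.70 in KO mice, with KO 3 close below the lowest WT mouse. Of 15 translation factors, 10 were tested, with a median of -0.33 (-0.10 under quantile normalization), and 4 fell. *Guf1*, a translational GTPase, had -0.65, -0.53 and -0.63 in WT mice and -1.37, -1.26 and -1.40 in KO mice. This was the clearest separation in the list, a difference of -0.74 ± 0.13 with a limma adjusted p of 0.0686. The elongation factor *Gfm1* fell by 0.49, *Gfm2*, which acts in ribosome recycling, by 0.50, and the recycling factor *Mrrf* by 0.47.

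Of 22 genes listed as mitochondrial aminoacyl-tRNA synthetases, which charge tRNAs for this ribosome, 21 were tested, with a median of -0.33, and 6 fell. The list also holds *Qrsl1*, *Gatb* and *Gatc*, which are subunits of an amidotransferase and not synthetases. *Gars* and *Kars*, also in the list, serve the cytosol as well. *Sars2* had -0.71, -0.38 and -0.62 in WT mice and -1.39, -1.34 and -1.32 in KO mice (-0.78 ± 0.14, limma adjusted p 0.0743). *Fars2* had 2.84, 3.05 and 2.84 in WT mice and 2.33, 2.35 and 2.37 in KO mice (-0.56 ± 0.13). In both genes the KO mice lay close together and below every WT mouse. *Vars2* and *Tars2* fell by 0.46 and 0.41. Factors of ribosome assembly and rRNA modification went both ways, with a median of -0.10 over 20 tested genes. The rRNA methyltransferase *Nsun4* fell by 0.55 and *Ybey* by 0.36, while *Mrm3*, another rRNA methyltransferase, rose by 0.55 and *Rpusd3* by 0.48. None of 10 tested genes of mitochondrial DNA transcription and RNA stability passed the threshold, with a median of -0.23. With marked spots kept, 12 of these genes were tested, with a median of -0.25, and 3 fell (25%, against 11.1% of all genes). In that setting 6 of the 12 had all KO values below all WT values (50%, against 17.1% of all genes). Of 7 tested nuclear regulators, *Esrra*, a nuclear receptor that drives mitochondrial genes, fell by 0.53, with 3.22 and 3.53 in the WT mice with a value and 2.75, 2.71 and 3.07 in KO mice, and *Myc* rose by 1.40.

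Large complexes outside mitochondrial translation moved to different degrees. The 15 tested complex I subunits, nuclear genes of the respiratory chain, had a median of -0.34 and none was called. Keeping marked spots let 36 be tested, with a median of -0.35, and 6 fell (16.7%, against 11.1% of all genes). The 58 tested cytosolic ribosomal proteins had a median of -0.27, with 1 called lower and 1 higher. In the same setting 79 were tested, with a median of -0.28, and 5 fell (6.33%). Under quantile normalization with marked spots left out, the complex I and cytosolic medians were -0.08 and -0.02. In that setting the medians were -0.19 for *Mrpl* genes, -0.13 for *Mrps* genes and -0.27 for the aminoacyl-tRNA synthetase list. The median signals of the complex I and cytosolic lists were 4.42 and 4.47, and at levels of 4 to 5 the median difference of 275 genes other than members was -0.31.

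**Figure D5:**
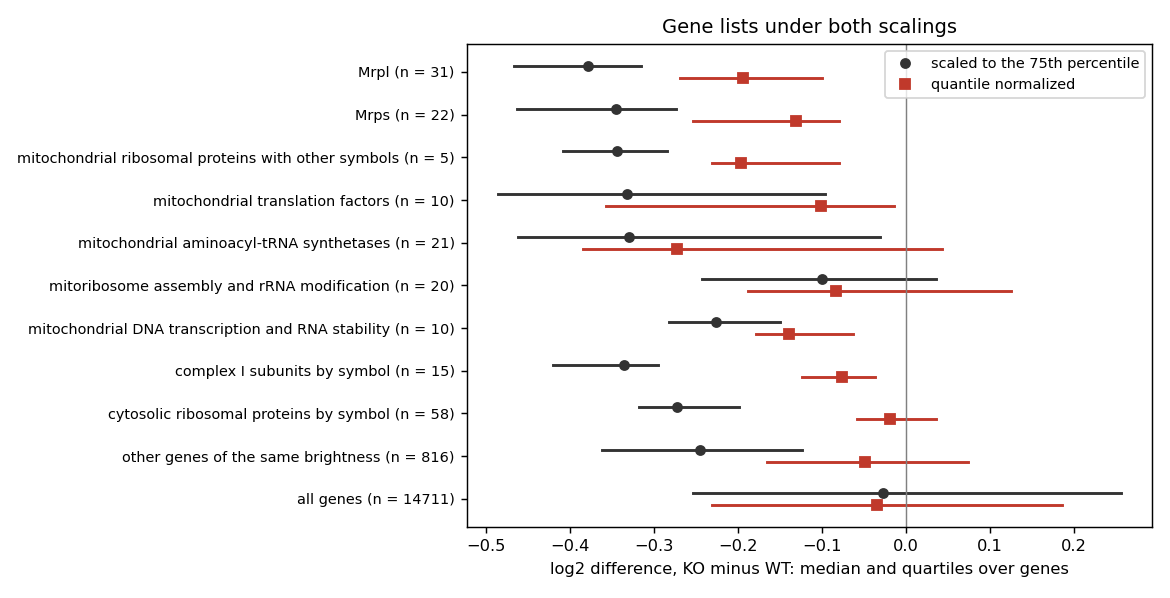
Median (symbol) and quartiles (line) over genes of the log2 difference between KO and WT (horizontal axis) for gene lists (vertical axis), scaled to the 75th percentile (black circles) and quantile normalized (red squares). The number of genes is that of the scaling to the 75th percentile. The *Mrpl* median moves from -0.38 to -0.19 between the scalings and the cytosolic ribosomal protein median from -0.27 to -0.02.

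The number of members called depended on single mice, as did the share of all genes. Without KO 2, 4 of 43 members were called lower (9.3%, against 7.57% of all genes), and without KO 1, 5 of 50 (10%, against 6.1%). Without WT 2 it was 5 of 40 (12.5%, against 5.6%), without WT 3 8 of 51 (15.7%, against 6.66%) and without WT 1 15 of 38 (39.5%, against 7.75%). Without KO 3, 22 of 44 were called (50%), against 10.3% of all genes and 35.3% of genes of the same brightness. The median difference stayed between -0.46 and -0.30. With slide row fitted as a block, the median was -0.36 and 3 were called (5.66%, against 3% of all genes and 4.04% of genes of the same brightness). With the muscle marker mean as a covariate, the median was -0.34 and 7 were called (13.2%, against 7.16% and 9.93%).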

How the data were processed

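Total RNA from BAT was labelled with Cy3 and hybridised to Agilent mouse gene expression arrays (version 2), 1 mouse per array. The authors deposited scanner files whose intensity values, per the file headers, are the processed signals of Agilent Feature Extraction 11.5.1.1 (10.7 per the labels), background-subtracted and not scaled between arrays. A table of log2 values that the authors deposited served as an alternative. The columns of that file share their maximum, and its normalization is not given in the sources used here.

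Each array was scaled on its own 75th percentile, taken over spots other than controls, and converted to log2. Spots marked by the software as uneven or as population outliers were left out. Probes had to be well above background on at least 3 arrays, with at least 2 unmarked values per group. Probes were matched to RefSeq genes (GRCm38.p6) by accession, 33767 of 56605 probes to 1 gene, and the brightest testable probe stood for a gene. The groups were taken from the labels and compared by linear models with empirical Bayes variances in limma 3.58.1 (R 4.3.3, with version 1.17.8 of data.table), two-sided, at 0.05 on the unadjusted p, the threshold of the study's methods, and on the Benjamini-Hochberg adjusted p over all genes. Values of ± are standard errors of the fit, and the number of arrays limits the precision. Nothing in the labels pairs mice between groups, and mouse numbers follow the order of the samples. The labels do not say whether the mice shared litters.

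Genes of the same brightness are all other genes whose mean signal lay between the quartiles of the members. Named genes are the members at an unadjusted p under 0.05 (12 in full), the 3 with the smallest difference, those with probes of opposite sign, those not tested, and up to 4 genes per list. The members and lists were chosen with earlier results of these data known. No list was given a test of its own, and the fit was tested on simulated data.

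Alternatives were other scalings (quantile, median, normexp at offset 50), the authors' own processed values, filters on dim or marked spots, averaging over probes, SAM with 20 relabellings, the methods' t-test, a trended and robust fit, the slide row, a muscle covariate and leaving out each mouse.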

Additional observations from a re-analysis of the deposited data

How the results depend on the processing

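The median difference of the members kept its sign in all alternatives, no member was called higher in any of them, and none passed the adjusted threshold in any of them. Against 15 of 53 members called lower, 8 of 53 were called with quantile normalization (15.1%, against 10.2% of all genes), 9 of 47 with the authors' processed values (19.1%, against 11.8%), 7 of 53 without a filter on dim probes (13.2%, against 4.22%), 35 of 78 with marked spots kept (44.9%, against 11.1%), 7 of 53 with SAM (13.2%, against 6.19%), 3 of 53 with the slide row as a block (5.66%, against 3%) and 7 of 53 with the muscle covariate (13.2%, against 7.16%). Within the row that holds both groups it was 0 of 40 (against 2%), where WT 3 was the lone WT mouse and was assumed to vary like the KO mice, and 40 of 40 had a lower KO mean. The methods' t-test called 10 of 53 (18.9%, against 9.35%) and no member after Benjamini-Hochberg adjustment. Leaving out 1 mouse gave 4 to 22 called. The median of -0.36 became -0.14 with quantile normalization, -0.16 with the authors' processed values and -0.15 with quantile normalization and marked spots kept, which was chosen after seeing the data; it was -0.46 to -0.30 without 1 mouse. Members without overlap numbered 12 of the 32 with all values (37.5%, against 14.7% of all such genes and 32.6% at the same brightness). With marked spots kept they numbered 38 of 78 (48.7%, against 17.1% and 31.4%). With quantile normalization and marked spots kept they numbered 25 of 78 (32.1%, against 15.9% and 17.9%). They numbered 30 within the row and 12 to 28 without 1 mouse, without a share of all genes to compare. There, a lone WT value or 2 values in a group separate more easily. The gap between the median differences of tested Mrpl and Mrps genes was -0.03, then 0.009 with normexp, -0.077 with the muscle covariate and -0.10 to -0.023 without 1 mouse. Of all genes, 1297 were lower and 1476 higher; 893 were higher with normexp, 442 lower and 872 higher with the row as a block, 248 and 665 within the row, and 716 to 1375 lower and 1067 to 1407 higher without 1 mouse. For named genes, 233 values kept their direction and side of the threshold, 123 lost the threshold and 9 changed sign. These were Mrps23 (0.16 with quantile normalization, with the authors' processed values and with marked spots kept besides), Mrps31 (0.11 and 0.074 with quantile normalization, without and with marked spots) and Mrpl9 (-0.15 with the row as a block and within the row, -0.10 without WT 2, -0.01 without KO 3, its range without 1 mouse being -0.10 to 0.19). The cause was not tested.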
